A study of Mus musculus with 4 samples.

Results

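The 85 genes for cytosolic ribosomal proteins were described in mouse bone marrow LSK cells, the Lin- Sca1+ cKit+ fraction that holds hematopoietic stem cells and multipotent progenitors. They were chosen by symbol from the 27998 genes of the count files: Rpl or Rps followed by a digit with the usual letter endings, together with Rplp0, Rplp1, Rplp2 and Rpsa. The rule left out 28 other symbols that start with Rpl or Rps, ribosomal S6 kinase genes and pseudogenes among them. Of the 85 genes, 84 had UMIs (unique molecular identifiers, each standing for 1 captured mRNA molecule), and these 84 passed the filter on low counts over all cells. Rpl10l, an autosomal copy of Rpl10 known from the testis, had no UMI.

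The libraries were droplet 3′ libraries from 2 control samples, labelled wild-type, which carried floxed Nup358 alleles without Cre, and 2 Nup358 knockout (KO) samples, floxed with the tamoxifen-regulated Cre recombinase CreERT2 at the R26 locus. Tamoxifen was injected into the mice of both genotypes, CreERT2 is expressed from a promoter active in most cell types, so deletion was not limited to blood cells, and each library pooled the marrow of several mice. Nup358, also called RanBP2 (gene Ranbp2), is a nucleoporin on the cytoplasmic face of the nuclear pore. Its UMIs (127, 104, 121 and 125 CPM, UMIs scaled to a common library total, in control 1, control 2, KO 1 and KO 2) were not lower in the KO libraries, and 3′ counts do not read the deleted exon, so they do not check the genotype.

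A ribosome consists of a small 40S subunit, built from Rps proteins, and a large 60S subunit, built from Rpl proteins around ribosomal RNA. The acidic proteins Rplp0, Rplp1 and Rplp2 form the stalk of the large subunit that recruits elongation factors. Ribosomal protein mRNAs are among the most abundant in any dividing cell, and most start with a run of pyrimidines, the 5′ TOP motif, through which mTOR signalling sets their translation. A few members have paralogs, such as Rps27 and Rps27l, of which Rps27l is a known p53 target. Mutations in RPS19, RPL5, RPL11, RPS24, RPS26 or RPL35A cause Diamond-Blackfan anaemia, a failure of red cell production, which is why the family is followed in marrow progenitors.

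Many cell barcodes were shared: 6680 sequences were found in several libraries, and 1138 in all 4, among 25242 deposited barcodes. Where the UMIs of a shared sequence were 3-fold or more higher elsewhere, the lower barcode was taken as a copy and left out (14.8%, 81.8%, 65.3% and 18.8% of the barcodes of control 1, control 2, KO 1 and KO 2). This left 7830, 1200, 1589 and 3422 cells with 59033602, 18846887, 32736147 and 53844729 UMIs, so control 2 had the fewest UMIs in all, while the median UMIs per cell were lowest in control 1 (6251, against 13175.5, 17707 and 14398.5). The sort genes were present in all 4 libraries but not at equal levels. Kit measured 95.6 and 106 CPM in control 1 and control 2, and 88.2 and 72.6 in KO 1 and KO 2. Ly6a, which encodes Sca1, measured 133 and 196 CPM in the controls and 311 and 216 in the KO libraries. The neutrophil granule gene Elane stood at 1824 and 1103 CPM in the controls against 44.0 and 24.7 in the KO libraries. Cells were clustered without the ribosomal protein genes, and clusters were named from fixed markers: N-like (neutrophil genes such as Elane, Mpo and Prtn3), ME-like (megakaryocyte and erythrocyte genes such as Gata1, Pf4 and Car1), L-like (lymphoid genes such as Ebf1 and Vpreb1), other mature, dendritic or mast cells, or none of these. The cells with no lineage name were 4643, 901, 967 and 2243 in control 1, control 2, KO 1 and KO 2, the N-like cells 2363, 186, 200 and 151, and the ME-like cells 749, 88, 176 and 521. L-like cells (2, 2, 10 and 132) were too few for a comparison.

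Windows of 30 bases around annotated starts are shown because the run of pyrimidines is the feature the family is best known for, and because they include members on which the results turn. RefSeq promoters of GRCm38.p6, matched by symbol, were found for 64 of the 85 members. Each line is read 5′ to 3′ on the gene's own strand, base 16 is the annotated start, and capitals mark a run of at least 6 pyrimidines. A run was counted as lying at the start when it reached to within 6 bases before it or began within 5 bases after it. In order, the windows lie on chromosome 3 (90213634 to 90213663, minus strand), chromosome 9 (66946071 to 66946100, plus), chromosome 16 (10170213 to 10170242, plus), chromosome 2 (180257364 to 180257393, plus), chromosome 12 (28635939 to 28635968, minus) and chromosome 5 (115559452 to 115559481, plus).
Rps27: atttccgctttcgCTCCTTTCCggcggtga
Rps27l: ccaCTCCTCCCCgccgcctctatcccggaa
Rpl39l: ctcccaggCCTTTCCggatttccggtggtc
Rps21: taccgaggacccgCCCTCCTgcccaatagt
Rps7: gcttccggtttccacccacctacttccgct
Rplp0: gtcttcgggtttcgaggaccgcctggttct
A run covered the annotated start in Rps27 and Rps21, ended just before it in Rpl39l and lay a few bases before it in Rps27l, while the windows of Rps7 and Rplp0 held no such run. Over the 64 matched members, 29 (45.3%) had a run at the annotated start, against 22.0% of all RefSeq promoter windows. The ETS-family letters CCGGAAG, searched on both strands of the 300-base promoter, were found in 39.1% of the members and 8.86% of all windows, and the YY1-type letters AAGATGG in 14.1% and 6.34%. An annotated start can lie some bases away from the used one: for 18 members the RefSeq start fell within 5 bases of the GENCODE start, and 6 of these had a run.

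The family took 29.1%, 32.3%, 30.6% and 29.7% of all UMIs in control 1, control 2, KO 1 and KO 2. The share was 30.7% ± 2.24 in control and 30.2% ± 0.649 in Nup358 KO cells (SD, n = 2 libraries each), and the highest and the lowest value both belonged to controls. The difference of -0.547 percentage points was smaller than the spread between the controls (exact permutation test, two-sided, p = 1; the smallest p that 2 against 2 libraries can give is 0.333). Within cells with no lineage name the shares were 30.0%, 33.2%, 31.0% and 29.9% in the same order, within N-like cells 28.3%, 30.5%, 30.3% and 29.4%, and within ME-like cells 29.1%, 31.1%, 30.6% and 29.9%. In each class the KO libraries lay between the controls or, for KO 2 in the cells with no lineage name, below control 1 by less than the distance between the controls. The differences between genotypes were -1.13, 0.411 and 0.189 percentage points (exact permutation test, p = 0.667, p = 1 and p = 1).

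**Figure D1:**
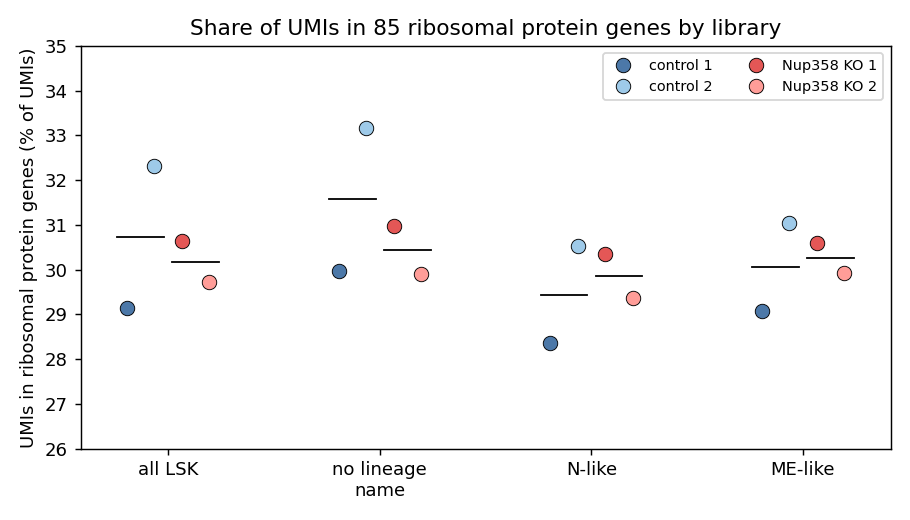
Share of UMIs in the 85 ribosomal protein genes (vertical axis, percent of UMIs, drawn from 26% to 35%) in each library, for all LSK cells and by class of cells; points are libraries and bars the means of the 2 libraries of a genotype. Control 2 is the highest point in every class, at 32.3% over all cells, and the KO points lie within the range of the controls over all cells, N-like and ME-like cells.

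Within each library the share was lower in N-like cells than in cells with no lineage name, by 1.63, 2.63, 0.629 and 0.546 percentage points in control 1, control 2, KO 1 and KO 2 (mean difference -1.36 ± 0.979, SD, n = 4 libraries, lower in 4 of 4), and at a finer clustering (Leiden resolution 1.5 in place of 1) the mean difference was -2.53. In ME-like cells the share differed by -0.902, -2.11, -0.384 and 0.00653 points (mean -0.848 ± 0.921, lower in 3 of 4 libraries). When the members were also used for clustering, the N-like share of KO 1 was above that of its cells with no lineage name (31.1% against 30.8%). In control 1, control 2 and KO 2 it was still lower (28.7%, 31.0% and 29.7%, against 29.9%, 33.5% and 29.9%). The classes came from clustering these same cells, so these values are a description and were not tested. N-like cells also held more UMIs per cell: the medians were 10195, 24107, 21220 and 17219, against 4865, 12421, 18778 and 14639 in cells with no lineage name. Cells were also compared within bins, each bin being a range of UMIs per cell in 1 library. The N-like share was the lower one in 9 of 10 bins and the ME-like share in 6 of 10. Bins with fewer than 20 cells of a class are not in these counts, and those bins went either way. The lowest share of any cluster belonged to a cluster of 136 cells with no lineage name led by S100a9 and S100a8, genes of late neutrophil precursors, where the family took 25.3% of UMIs.

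The 31 genes of the 40S subunit took 13.9%, 15.1%, 14.4% and 14.4% of all UMIs in control 1, control 2, KO 1 and KO 2, and the 43 genes of the 60S subunit outside the stalk took from 13.7% in control 1 to 15.8% in control 2. The 3 stalk genes took 1.25%, 1.04%, 1.40% and 1.11%. The ratio of Rpl to Rps UMIs was 1.09, 1.13, 1.12 and 1.06, so the genotypes overlapped in this measure too. Rpsa, whose product is a 40S protein that also serves as the laminin receptor, had the most UMIs of all members (1397948), and Rps4x and Rpl13 were next. At the low end stood Rpl3l, a striated muscle paralog of Rpl3, with 37 UMIs in all, and Rpl39l, a testis-type paralog of Rpl39, with 158.

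No member passed the test of Nup358 KO against control over all LSK cells (0 of 84; edgeR's quasi-likelihood test on UMIs summed per library, adjusted p under 0.05), where 3.44% of the 13779 genes tested passed. At an unadjusted p under 0.05 there were 3 members (Rpl15, Rpl39l and Rpl3l), 3.57% against 21.7% of all genes, and DESeq2 called 0 members and 4.57% of genes. The median log2 fold change of the members was -0.04, against -0.01 over all genes tested. It was -0.03 for the 40S genes, -0.07 for the 60S genes, -0.01 for the stalk genes and 0.18 for the 7 paralogs tested. In cells with no lineage name 0 of 83 members passed (8.26% of genes; 6 members and 29.4% of genes at an unadjusted p under 0.05), in N-like cells 0 of 82 (3.74% of genes; unadjusted, 0 members and 18.2% of genes) and in ME-like cells 0 of 82 (2.85% of genes; unadjusted, 2 members and 18% of genes). DESeq2 called 2 members, Rps27l and Rpl23a, in cells with no lineage name (7.19% of genes), 0 in N-like cells (1.9% of genes) and 0 in ME-like cells (1.05% of genes). In sums over cells, fewer cells of a type and less RNA per cell cannot be told apart. A missed threshold does not show that the levels were equal: the median standard error of a member's log2 fold change was 0.20.

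The KO libraries lay above both controls for 13 members (15.5%, against 26.6% of all genes tested) and below both for 7 (8.33%, against 27.4%). The higher ones included Rpl4, Rpl5, Rpl7a, Rpl14, Rpl17, Rpl26, Rps2, Rps6, Rps25, Rplp1 and the paralogs Rpl7l1 and Rpl39l, and the lower ones Rpl3, Rpl10, Rpl13, Rpl15, Rps7 and the paralog Rpl3l. Both shares were below those of all genes.

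The lowest fold changes of well-measured members belonged to short 40S and 60S proteins. Rps27, a zinc-finger protein of the 40S subunit, stood at 969 and 2371 CPM in the controls and at 1192 and 860 in the KO libraries. Control 2 was 2.45-fold above control 1, KO 1 lay between the controls and KO 2 below both. Its log2 fold change was -0.70 (SE 0.40, edgeR adjusted p = 0.361).
Rps28, among the smallest 40S proteins, measured 607, 1968, 945 and 718 CPM in control 1, control 2, KO 1 and KO 2 (log2 fold change -0.63, edgeR adjusted p = 0.503). Rpl39, at the wall of the peptide exit tunnel, measured 3080, 6432, 3716 and 2525 (-0.61, edgeR adjusted p = 0.384). In these genes too control 2 stood apart from the other 3 libraries, and the genotypes overlapped for Rps28, while for Rpl39 KO 2 lay below both controls and KO 1 between them.

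Among the members with the highest fold changes, Rpl23a measured 314 and 409 CPM in the controls and 567 and 404 in the KO libraries (log2 fold change 0.43, SE 0.22, edgeR adjusted p = 0.322). KO 2 and control 2 were nearly equal, so the genotypes overlapped. Rps2, a 40S protein at the mRNA entry channel, measured 4763 and 6358 CPM in control and 6590 and 7678 in KO cells (0.36, SE 0.21, edgeR adjusted p = 0.384), with a narrow gap between the genotypes. Rpl5, which binds 5S rRNA and, with Rpl11, can hold the p53 inhibitor Mdm2, measured 1172 and 851 against 1315 and 1235 CPM (0.33, SE 0.20, edgeR adjusted p = 0.394), also without overlap. Rplp1 measured 4366 and 4975 against 6047 and 5576 CPM (0.32, SE 0.18, edgeR adjusted p = 0.368), and its KO values were both above the controls. The testis-type Rpl39l was at 0.490 and 0.493 CPM in control and 2.07 and 0.938 in KO cells (1.58, SE 0.48, edgeR adjusted p = 0.120), a difference that rests on 29, 9, 69 and 51 UMIs in control 1, control 2, KO 1 and KO 2.

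**Figure D2:**
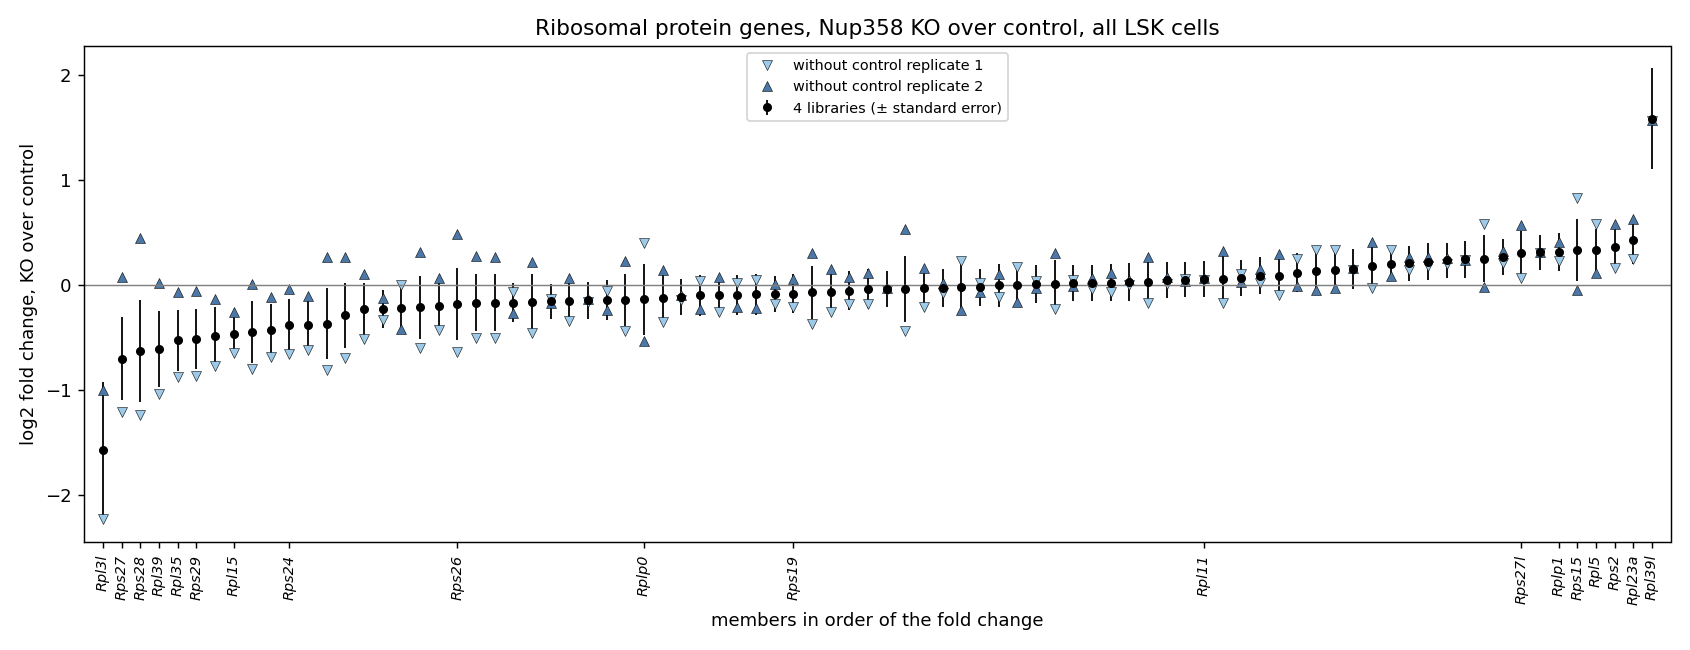
Log2 fold change of Nup358 KO over control for the 84 tested members, some of them labelled, ordered by the value from all 4 libraries (black points, bars are standard errors), with the same value without control 1 (light triangles pointing down) and without control 2 (dark triangles pointing up). For Rps28 the value moved from -1.24 without control 1 to 0.45 without control 2.

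The 6 members known from Diamond-Blackfan anaemia did not move together. Rps26 measured 1842, 4046, 2689 and 2498 CPM in control 1, control 2, KO 1 and KO 2, with control 2 apart from the others. Rps24 measured 5485, 8468, 5559 and 5151 CPM and Rpl35a 2784, 4763, 3602 and 3107 CPM in the same order, again with control 2 the highest. Rps19 measured 5732, 6930, 5903 and 6050 CPM and Rpl11, the partner of Rpl5, 4675, 4739, 4658 and 5141 CPM, and in both genes the genotypes overlapped. Their log2 fold changes ran from -0.38 for Rps24 to 0.06 for Rpl11, beside 0.33 for Rpl5, and none passed the test.

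The controls differed from each other more than the genotypes did in most of the family. Of 81 members with at least 10 CPM and a coding sequence in the annotation, 64 differed more between control 1 and control 2 than between the means of KO and control. Single libraries vary more than means of 2 libraries, so this count can be high with no genotype effect. Between the controls 22 members differed by over 1.5-fold, 19 of them higher in control 2, whereas between the KO libraries 1 did. These counts were not made over all genes, so they are not shown to be particular to the family. The ratio moved with the length of the coding sequence: over the 81 members Spearman's rho between coding length and log2 of control 2 over control 1 was -0.69 (Pearson's r -0.65), and between coding length and log2 of KO 2 over KO 1 it was 0.70 (Pearson's r 0.59). For KO over control rho was 0.37 (Pearson's r 0.43). These are correlations across genes of the same 4 libraries, which are no independent replicates, and they are given as a description. Of the 39 members with a coding length under the family's median of 453 bases, 37 were higher in control 2, against 22 of the other 42. Over 7745 other genes rho for the controls was -0.26, and over the 336 other genes with at least 300 CPM, a level nearer to that of the members, it was -0.28. For KO 2 over KO 1 and for KO over control, rho was not computed over other genes. Those values are therefore not shown to be particular to the family.

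**Figure D3:**
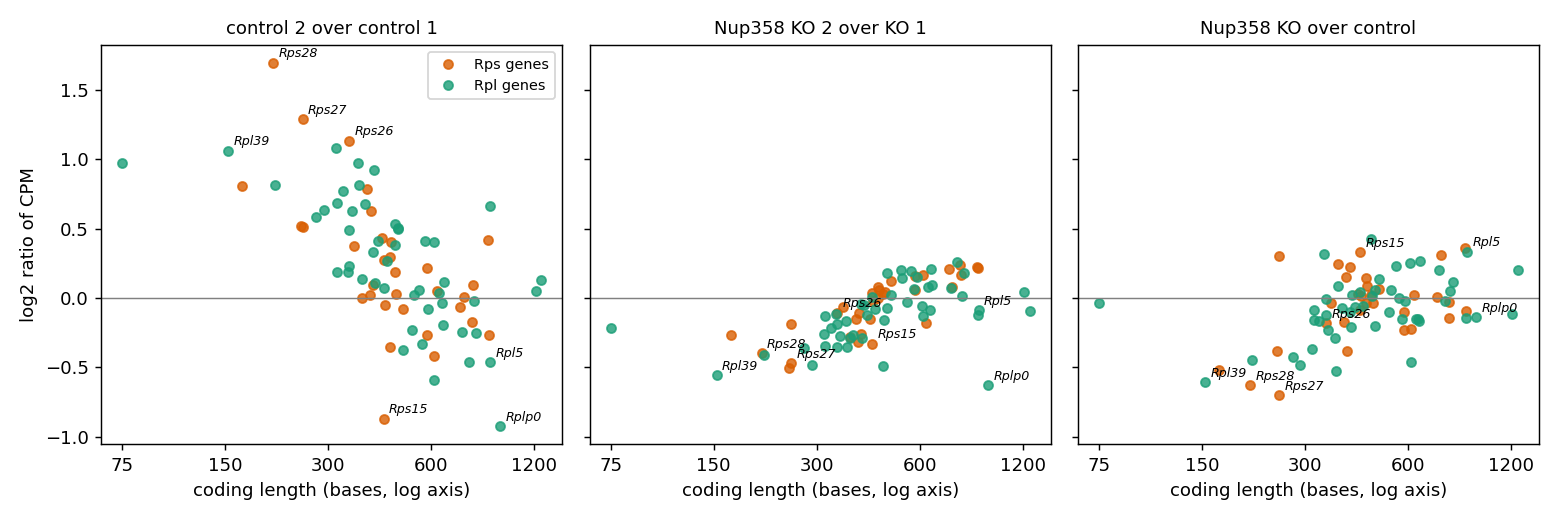
Coding length of 81 ribosomal protein genes (horizontal log axis, bases) against the log2 ratio of CPM between the controls, between the KO libraries and between the genotypes. Short genes lie high in the left panel and low in the middle panel, with Rps28 at 1.70 in the left one, and the right panel is flatter.

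The calls depended on which control was used. With 1 control left out the spread between replicates comes from the KO libraries alone, and the remaining control is assumed to vary like them, so these calls have no replicate check in control. Without control 1, 12 members passed over all LSK cells, 1 higher (Rps15) and 11 lower in KO cells (13.1% of members, where 9.38% of all genes were called higher and 11.3% lower). The lower ones were Rps28 (-1.24), Rps27 (-1.21), Rpl39 (-1.04), Rpl35, Rps29, Rpl36, Rpl38, Rpl22l1, Rpl15, Rps26 and Rpl27. Without control 2, 0 members passed, where 6.07% of genes were higher and 7.29% lower, and Rps28 was then at 0.45 and Rpl39 at 0.01. Which control is the better reference cannot be told from these libraries, and Malat1, a nuclear RNA, was highest in control 2 (0.663% of UMIs, against 0.442%, 0.358% and 0.301% in control 1, KO 1 and KO 2). The mitochondrial share was 2.54%, 3.29%, 3.37% and 2.74% of UMIs in control 1, control 2, KO 1 and KO 2. Within each genotype it was higher in the library where most short members were higher (control 2 and KO 1). These libraries also had the larger shares of copied barcodes. Haemoglobin genes took 0.0126%, 0.135%, 0.0167% and 0.0224% of UMIs in the same order. The parts of these measures in the length pattern were not tested.

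Rplp0, the scaffold of the stalk (chromosome 5, 115559467 to 115563727, plus strand), measured 5740, 3024, 4834 and 3128 CPM in control 1, control 2, KO 1 and KO 2. Control 2 and KO 2 were low and control 1 and KO 1 high, a split that crossed the genotypes. Gm8730, an intronless processed pseudogene of Rplp0 on chromosome 8 (102864845 to 102865798, minus strand), showed the opposite split, with 57.0, 2672, 62.8 and 1863 CPM. It took 46.9% of the summed counts in control 2 and 37.3% in KO 2, but 0.983% in control 1 and 1.28% in KO 1. The sum of both genes was 5797, 5696, 4896 and 4991 CPM. The highest sum was 1.18 times the lowest, against 1.90 times for Rplp0 alone, and the sum was lower in both KO libraries than in both controls (5746 ± 70.9 in control, 4944 ± 67.2 in KO cells, SD, n = 2 each; log2 fold change -0.22, exact permutation test p = 0.333, the smallest possible).
Pairs of 30-base stretches are shown because a read from either gene can be told apart within the shared stretch only at such bases. Over the 954 aligned bases the transcripts differed at 12 positions (98.7% identity, no gap), and positions are counted from 1 at the 5′ end of the 1358-base Rplp0 transcript, with the base of Rplp0 first and capitals at the difference (T724G, A817G and A905G). All are given in build GRCm38: Rplp0 at chromosome 5, 115561456 to 115561485 in exon 5, and 115562456 to 115562485 and 115562537 to 115562566 in exon 6, and Gm8730 at chromosome 8, 102865181 to 102865210, 102865088 to 102865117 and 102865007 to 102865036.
Rplp0 around T724G: agcatttataacccTgaagtgctcgacatc
Gm8730 around T724G: agcatttataacccGgaagtgctcgacatc
Rplp0 around A817G: cagatcgggtacccAactgttgcctcggtg
Gm8730 around A817G: cagatcgggtacccGactgttgcctcggtg
Rplp0 around A905G: actgagtacaccttcccacttActgaaaag
Gm8730 around A905G: actgagtacaccttcccacttGctgaaaag
The last of the 12 differences lay 453 bases before the 3′ end of the Rplp0 transcript. The annotated Gm8730 transcript held no counterpart of the final 283 bases of Rplp0, and the genomic sequence beyond that annotation was not examined. Over all members, 25 had at least 1 gene of at least 95% identity over 200 bases among the genes counted, 37 such genes in all, of which 2, Flt3l beside Rpl13a and Wdr89 beside Rplp2, are not named as copies. The levels of these 25 members are less certain than those of the rest. The other 35 copies together took 0.220%, 0.415%, 0.193% and 0.326% of all UMIs in control 1, control 2, KO 1 and KO 2, so the share of the family with its copies kept the order of the libraries (29.4%, 32.7%, 30.8% and 30.0%).

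**Figure D4:**
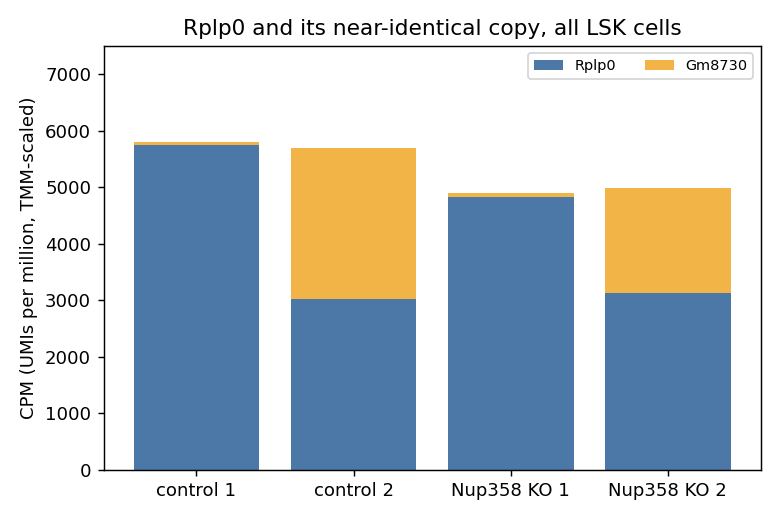
CPM of Rplp0 (lower bars) and of its near-identical copy Gm8730 (upper bars) in each library, all LSK cells, on an axis from 0. Gm8730 is a visible part of the bar in control 2 and KO 2 and not in control 1 and KO 1, while the height of the whole bar runs from 4896 to 5797.

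Single members stood out in N-like cells. Under a scaling of both classes together, Rps27l (chromosome 9, 66946086 to 66949516, plus strand), the paralog of Rps27, measured 480, 780, 673 and 642 CPM in the N-like cells of control 1, control 2, KO 1 and KO 2, against 290, 459, 606 and 524 CPM in the cells with no lineage name of the same libraries. The log2 ratios were 0.73, 0.76, 0.15 and 0.29, all above 0, and the ratios of the controls were the larger ones. Rpl36al, the paralog of Rpl36a, had ratios of 0.58, 0.60, 0.21 and 0.21, Rpl7l1 of 0.53, 0.39, 0.18 and 0.31, and Rpl5 of 0.41, 0.43, 0.14 and 0.22. These 4 had the highest mean ratios among members of at least 10 CPM and were above 0 in all 4 libraries both under this scaling and on total UMIs. At the other end Rps24 had ratios of -0.15, -0.15, -0.02 and -0.06, below 0 in all 4 libraries under both.

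The direction of the other members in N-like cells depended on the scaling. With TMM factors for both classes together, 57 of 82 members were higher in N-like cells in all 4 libraries (69.5%, against 33.5% of genes of at least 10 CPM) and 3 were lower (against 19.4%). On total UMIs, 13 were higher and 43 lower, where 20.7% and 32.1% of genes were, and 13 and 3 kept their side under both scalings. The joint scaling left the median ratio of all genes at 0.06, and that of the members was 0.06 as well.
In ME-like cells the scaling mattered little: 13 members were higher in all 4 libraries (15.9%, against 28.9% of genes) and 40 lower (48.8%, against 20.6%). On total UMIs 11 were higher and 40 lower, where 28.7% and 21.2% of genes were. Among members of at least 10 CPM, Rpl14 had the highest mean, with ratios of 0.13, 0.13, 0.11 and 0.13 in control 1, control 2, KO 1 and KO 2, and Rpl21, Rpl7l1 and Rpl13a were next. Rpl39l, below that minimum, had ratios of 1.55, 1.51, 0.70 and 0.03 from few UMIs. Rpl6l (-0.26, -0.39, -0.46 and -0.06), Rps9 (-0.16, -0.24, -0.10 and -0.10), Rplp1 (-0.09, -0.24, -0.12 and -0.08), Rps21 and Rps20 were lowest. In ME-like cells no ratio of Rpl14, Rps9 or Rplp1 went beyond 0.24 in size.

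**Figure D5:**
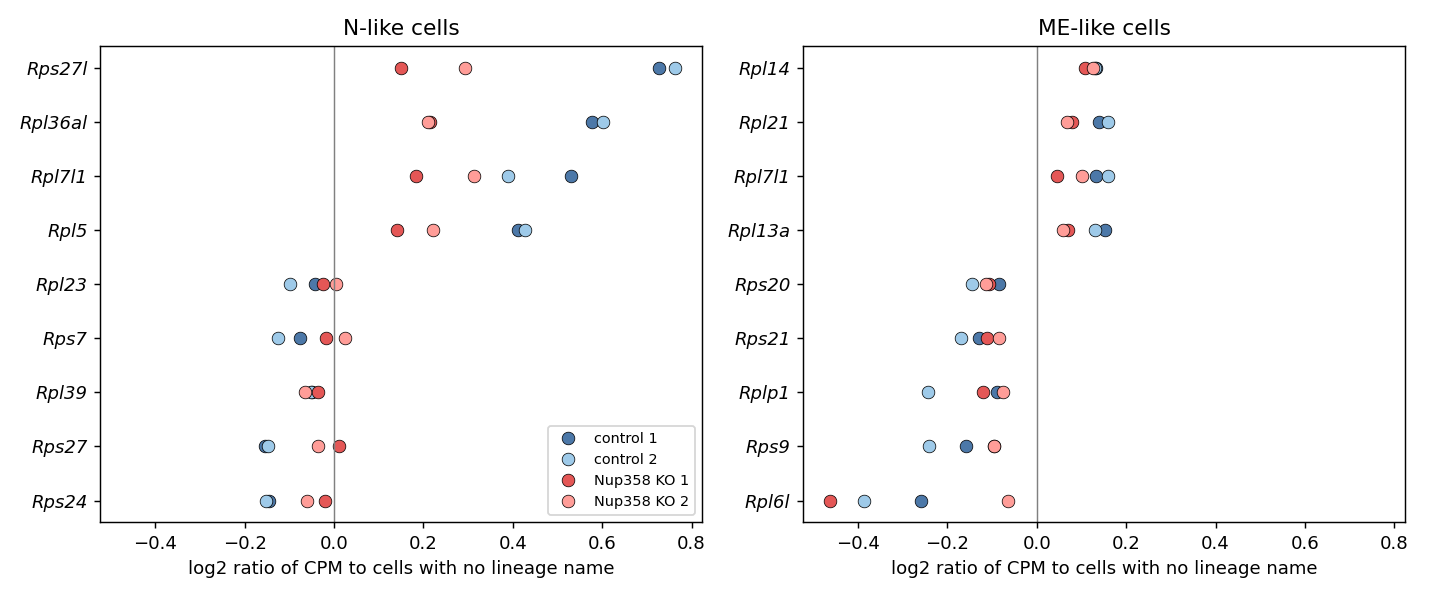
Log2 ratio of CPM in N-like cells (left) and ME-like cells (right) to cells with no lineage name of the same library, both classes scaled together, for the 4 members with the highest and the 5 with the lowest mean ratio among those of at least 10 CPM; points are libraries. In N-like cells the controls lie to the right of the KO libraries for Rps27l, Rpl36al, Rpl7l1 and Rpl5.

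The effect of the knockout itself was compared between classes in a model with a term for the difference. For 16 of 83 members (19.3%) the log2 fold change of KO over control was lower in N-like cells than in cells with no lineage name (edgeR's quasi-likelihood test, adjusted p under 0.05), where 11.7% of 12854 genes were lower, and it was higher for 0 members (6.15% of genes). Rps27l had the largest difference. Scaled within each class, it measured 303 and 476 CPM in control and 634 and 547 in KO cells with no lineage name, without overlap (log2 fold change 0.60, SE 0.23, edgeR adjusted p = 0.131). In N-like cells it measured 455 and 757 in control and 644 and 620 in KO cells, with the KO values inside the range of the controls (0.06). The difference between the 2 fold changes was -0.53 (SE 0.06, edgeR adjusted p = 4.37e-05).
Rpl36al (-0.38, SE 0.05, edgeR adjusted p = 0.000134) and Rps2 (-0.22, SE 0.04, edgeR adjusted p = 0.000883) also had a lower fold change in N-like cells. Rps2 measured 4387 and 6184 CPM in control and 6886 and 7860 in KO cells with no lineage name, without overlap. Its N-like values were 4969, 6998, 6538 and 7748 CPM in control 1, control 2, KO 1 and KO 2. There KO 1 lay between the controls and KO 2 above both. Rps27l, Rpl36al, Rps2 and Rpl41 were among the 5 members also called lower when total UMIs were used for scaling. Counts of Rpl41 are less certain, since its near-identical copy Gm10076 measured 1371, 912, 1065 and 691 CPM over all LSK cells. Rpl41 itself measured 3251, 6401, 5060 and 4356 CPM there (control 1, control 2, KO 1 and KO 2). Under that scaling 15 other members were called higher (9.86% of genes were higher and 7% lower), so the direction of the family in this comparison was not settled.
The count also moved with the cells and clusters used, and with it the count over all genes: it was 0 at a Leiden resolution of 1.5, where 2.65% of genes differed, and 61 when cells needed 500 genes and were clustered anew, where 32.5% did (17.9% as first fitted). At resolution 1.5 the N-like cells were 1764, 134, 41 and 32 in control 1, control 2, KO 1 and KO 2. At the main resolution of 1 they were 2363, 186, 200 and 151. Over the 16 fits of this comparison the Rps27l difference was below 0 in 16 and called in 15 (from -0.76 to -0.41), and that of Rpl36al was below 0 in 16 and called in 14. The clusters behind the classes were not shared evenly: N-like cluster 11 (826 cells) held 3 and 6 cells of KO 1 and KO 2, cluster 6 (705 cells) 2 and 5, and most N-like KO cells came from clusters 4 (led by interferon-induced genes and Elane) and 10. The cells with no lineage name included cluster 7, led by the neutrophil marker Ctsg. It held 219, 7, 159 and 198 cells of control 1, control 2, KO 1 and KO 2. The comparison was not fitted without it, and the part of these clusters in the difference was not tested. Over all LSK cells Elane, a marker of the N-like class, stood at 1824 and 1103 CPM in control and 44.0 and 24.7 in KO cells. Marker levels within N-like cells were not compared between genotypes. Whether the N-like cells of both genotypes were at the same stage was therefore not tested. In ME-like cells the KO effect differed for 0 of 83 members (4.1% of 12330 genes, edgeR; 8 members and 16.9% of genes at an unadjusted p under 0.05, and 0 members by DESeq2).

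Ribosomal proteins under other symbols and other genes of the pathway were read from fixed lists. Fau, a 40S protein made as a fusion with a ubiquitin-like protein, measured 2892, 4259, 3052 and 2824 CPM over all LSK cells in control 1, control 2, KO 1 and KO 2 (log2 fold change -0.28, edgeR adjusted p = 0.520). Gnb2l1 (Rack1), a 40S scaffold protein, measured 2898, 1845, 2506 and 2856 CPM (0.18, edgeR adjusted p = 0.722). In both genes the genotypes overlapped, which does not describe the whole list, of which 3 genes were in the files. Of these 3, 0 passed the test in any class. Of 17 elongation factors and other 5′ TOP genes 0 passed in any class, and Eef1a1 measured 5202, 6671, 5678 and 5081 CPM. Of 30 genes of ribosome assembly and rRNA synthesis 0 passed over all cells, with a median log2 fold change of 0.30, and in cells with no lineage name 6 rose and 0 fell in KO cells (where 2.9% of genes rose): Ncl, Nolc1, Polr1b, Tsr1, Bysl and Tcof1. Ncl, which encodes nucleolin, measured 1168 and 1087 CPM in control and 2077 and 2039 in KO cells of that class, without overlap (log2 fold change 0.87, SE 0.16, edgeR adjusted p = 0.0270). Nolc1, a nucleolar phosphoprotein, measured 146 and 115 against 245 and 230 (0.86, SE 0.16, edgeR adjusted p = 0.0267). Of 77 mitochondrial ribosomal proteins, which serve a separate ribosome, 0 passed over all cells and 2, Mrpl47 and Mrps22, rose in cells with no lineage name. That was no larger a share than the 2.9% of all genes that rose there. In N-like and in ME-like cells 0 genes of the assembly list and 0 of the mitochondrial list passed. The lists were chosen by name with earlier results of these data known, and their counts are a description. The class without a lineage name held different clusters in the 2 genotypes (clusters 0, 2, 3 and 9 mostly control cells, clusters 5, 13 and 14 mostly KO cells), and their part in these changes was not tested.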

How the data were processed

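UMI counts per gene and cell were deposited by the authors for 4 libraries, made with 10x Genomics 3′ chemistry and Cell Ranger 3.1 on mm10, with no normalization. The control and KO groups and their replicate numbers came from the sample labels. No cell or doublet filter is given in the sources used here. The members and lists were chosen with earlier results of these data known.

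Kept cells had at least 200 genes and at most 10% mitochondrial UMIs, and copied barcodes were left out (at least 3 times as many UMIs under the same sequence in another library), a rule also taken from earlier results. Scrublet predicted 9 doublets (0.0641%), too few to have worked, so none were removed. Cells were clustered with scanpy 1.11.5 (2000 variable genes without members, 10 principal components, Leiden resolution 1). A cluster was named when at least 3 markers of a list were raised (mean log2 fold of at least 2 against the median of the other clusters). For the N-like, ME-like and L-like names the list also had to hold more of the cluster's 10 most raised genes than any other list. The requirement that no other list tie was added after clusters had been seen. UMIs were summed per library and class, filtered with filterByExpr, scaled by TMM and tested with edgeR 4.0.16 (R 4.3.3, quasi-likelihood, Benjamini-Hochberg over all genes tested, 0.05), with DESeq2 1.42.0 as an alternative. Shares were compared by exact permutation tests over libraries. The libraries are the replicates; p-values measure the spread between these samples. On simulated data with 200 changed genes the all-cell test found 72.4% of them with 7.19% false calls among its calls (13779 genes). The simulated log2 changes were 1 or 2 in size, of which 52.0% and 92.9% were found. Smaller changes, such as those of most members, were not simulated. Of the calls within classes, 10.2% were false in cells with no lineage name, 3.90% in N-like and 6.82% in ME-like cells. The fit of the difference between KO effects was not simulated.

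Named members were the 5 highest and 5 lowest fold changes per comparison, since no member passed, the 5 with most UMIs, those without UMIs, the stalk genes and Rpsa, the anaemia genes, the paralog pairs and the 5 highest and lowest class ratios. Rps15, Rpl15 and other genes of counts of calls were named after their values were seen. Near-identical copies were found with BLAST 2.17.0 (95% identity, 200 bases, a minimum raised after repeat elements had matched). The printed windows were also picked after the values were known. Class ratios were first computed with each class scaled separately, which made them not comparable, and were then computed with joint TMM and on total UMIs. Correlations used a minimum of 10 CPM. Some genes of the family and of the lists are not reported by name here, while counts and shares over the family include its members.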

Additional observations from a re-analysis of the deposited data

Results flagged for a closer look

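The effect of the Nup358 knockout differed between N-like cells and cells with no lineage name for 9 of the members described by a test of the difference itself (edgeR's quasi-likelihood test, adjusted p under 0.05). Over the whole family 16 of 83 members (19.3%) were called lower in N-like cells and 0 higher. Of 12854 genes tested, 11.7% were called lower and 6.15% higher, so such differences were not particular to the family. In each of the 9 members the log2 fold change of KO over control was the lower one in N-like cells. The differences on the log2 scale were -0.53 for Rps27l, -0.38 for Rpl36al, -0.27 for Rpl23a, -0.25 for Rps15, -0.24 for Rpl5, -0.22 for Rps2, -0.20 for Rplp2, -0.17 for Rpl14 and -0.15 for Rplp0. Rplp0 has the near-identical copy Gm8730, whose part of their summed counts over all LSK cells differed between libraries. Rpl23a, Rps2 and Rplp2 also had genes of at least 95% identity among the genes counted. The values of these members, Rplp0 among them, are less certain than the rest, and the part of the copies in this comparison was not tested.

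Of the 16 fits of this comparison, Rps27l was called in 15, Rpl36al in 14, Rps15 in 13, Rpl23a, Rps2 and Rplp2 in 12, Rpl5 in 11, Rpl14 in 9 and Rplp0 in 8, and the difference was below 0 in 16 of 16 for each of the 9. At a Leiden resolution of 1.5 none of them was called, where 2.65% of all genes differed. On total UMIs, where 7% of all genes were lower, those still called lower were Rps27l, Rpl36al and Rps2. At resolution 1.5 the N-like class held 41 and 32 cells of KO 1 and KO 2, against 200 and 151 at the main setting. The cells with no lineage name included cluster 7, led by the neutrophil marker Ctsg, and the comparison was not fitted without it. Elane stood far lower over all KO cells than over all control cells. Whether the N-like cells of both genotypes were at the same stage was not tested.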

How the results depend on the processing

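No member was called in the 4 comparisons of KO with control, and with each library left out in turn the counts ran from 0 to 12 over all LSK cells, 0 to 20 in cells with no lineage name, 0 to 16 in N-like and 0 to 14 in ME-like cells, the highest without control replicate 1 in each. Without it, 9.38% of all genes were higher and 11.3% lower over all LSK cells, 16.6% and 14.8% in cells with no lineage name, 5.26% and 8.2% in N-like and 4.12% and 5.54% in ME-like cells, where 1 and 11, 4 and 16, 1 and 15, and 2 and 12 members were. In the same order, no filter on low counts gave 4, 6, 3 and 1 (10.1%, 14.4%, 5.55% and 4.93% of all genes). A block meant for complexity gave 1, 3, 0 and 0 (12.6%, 16.2%, 11.8% and 7.44%), while DESeq2 gave 2 in cells with no lineage name. That block used the median genes of all deposited barcodes, copies included: 2130, 648, 656 and 3445 in control 1, control 2, KO 1 and KO 2. It grouped control 1 with KO 2. Among kept cells the medians were 2387, 3600.5, 4254 and 3861, so the block did not follow the complexity of the cells used. Over all LSK cells, cells with no lineage name, N-like and ME-like cells, the members' median log2 fold changes without control replicate 2 were 0.07, 0.15, 0.09 and 0.18. Over all genes tested these medians were -9.8e-05, -0.0052, -0.0009 and -0.0036. A library left alone in its group is assumed to vary like those of the other group. With the replicate number as a block the counts were 1, 1, 0 and 0, Rpl39l in both cases (9.12%, 12.9%, 5.63% and 4.01% of all genes). The numbers were not taken to pair the samples: deviations of control 1 and KO 1 from their group means correlated at -0.06 over 13779 genes and -0.37 over the members. Counts of Gm8730 did split by the numbers. They were 57.0 and 62.8 CPM in control 1 and KO 1, and 2672 and 1863 in control 2 and KO 2. Whether libraries of the same number shared a batch was not tested. For the KO effect in N-like cells against cells with no lineage name, the count of 16 (17.9% of all genes) became 10 with all deposited barcodes (6.2%), 61 at 500 genes per cell (32.5%), 2 without Scrublet's doublets (3.61%), 0 at resolution 1.5 (2.65%) and 10 with DESeq2 (5.59%), and it ran from 9 to 25 with each library left out (9 without KO replicate 1, 10.4% of genes; 25 without control replicate 2, 16%). For ME-like cells, where 0 were called (4.1% of genes), it became 3 at 500 genes per cell (7.35%), 3 with members among the variable genes (3.48%), 2 on total UMIs (3.7%), 6 without the filter (3.83%) and 4 with the complexity block (6.82%), and ran from 0 to 1 with a library left out. The members higher in N-like cells in all libraries were 57 with both classes scaled together (33.5% of genes) and 13 on total UMIs (20.7%). The lower ones were 3 (19.4%) and 43 (32.1%). Each class scaled separately gave 6 higher and 47 lower, but that scaling does not make the classes comparable. With members among the variable genes, the N-like share was above that of cells with no lineage name in KO 1 (31.1% against 30.8%). In control 1, control 2 and KO 2 it was still below. At resolution 1.5 the N-like share difference was -2.53 points. Cells were clustered anew at that setting and without Scrublet's doublets. The N-like cells of KO 1 and KO 2 then fell from 200 and 151 to 41 and 32 and to 39 and 30. The causes were not tested. Summing copies, the separate scalings, leaving out libraries in the comparison of KO effects, and leaving the neutrophil-led clusters out of the cells with no lineage name (shares then 30.3%, 33.6%, 31.1% and 30.0%) were chosen after seeing the data. Sign changes of members that were never called were read against 1 SE and not as reversals. L-like cells gave no value at the main settings, and depth limits Rpl39l and Rpl3l.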
